A study of Mus musculus with 2 samples.

Results

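The genes described here are 33 genes of glycolysis and of the cell's response to low oxygen, out of 32285 genes in the deposited count tables. They were taken by name from a list: glucose and lactate transporters, the enzymes from hexokinase to lactate dehydrogenase with their tissue variants, 2 regulators of the pathway, the oxygen-sensing machinery and a set of genes switched on by hypoxia. All 33 had a row in both tables.

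Glycolysis splits glucose to pyruvate in the cytosol, and lactate dehydrogenase and lactate transporters remove the product when it is not burned in mitochondria. Oxygen-dependent prolyl hydroxylases mark the alpha subunits of the hypoxia-inducible factors for destruction, so that in low oxygen these factors accumulate, bind a short core element and raise many glycolytic and angiogenic genes. In the liver, oxygen falls along each sinusoid from the portal to the central vein, and the sinusoidal endothelium lines this gradient.

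Cells came from mouse liver at postnatal day 15, were sorted by flow cytometry as endothelial and hematopoietic cells, and were captured in droplets. The first library held cells of mice with c-Maf knocked out (c-Maf KO), and the second held cells of control mice. Each library pooled 1 male and 1 female. The c-Maf allele, the driver of its deletion and the cell types it reaches are not stated by the labels, whose titles join c-Maf KO or control to the words endothelial cell mice.

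The c-Maf KO library held 8166 annotated cells, with 2991 endothelial cells at a median of 7320 unique molecular identifiers (UMIs) per cell. The control library held 7669 annotated cells, with 2948 endothelial cells at a median of 4986 UMIs. The c-Maf KO and control annotations shared 21 cell barcodes. Every one of 6 endothelial markers was present in the endothelial clusters, with a summed level of 5122 counts per 1000000 UMIs (CPM) in c-Maf KO and 6892 CPM in control cells. The targeted gene Maf stood at 162 CPM in c-Maf KO endothelial cells and 2070 CPM in control endothelial cells. The c-Maf KO cells that the authors placed in the 2 control-rich sinusoidal clusters, S and S2, kept Maf at 1732 CPM, against 2158 CPM in the control cells of these clusters. Cell clusters and their names are the authors' own. S, S2, KOS_1, KOS_2 and KOS_3 are taken here as sinusoidal, C-EC as cycling and PV as large vessel endothelium. KOS_2 carried platelet markers at 915 CPM in the c-Maf KO library, where KOS_1 and KOS_3 had 55.5 and 57.0 CPM, so results that turn on it are also given without it.

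Since each group is a single library, no p-value is given. CPM were computed from the UMIs of a gene and of all genes, each summed over the cells of a type. The rule for calling a gene changed had 3 parts: a level at least 1.5-fold apart between libraries, a 95% interval of that ratio clear of equality, and 50 or more UMIs in the 2 sums together. The intervals cover counting error only, not differences between mice. A lower level in a sum can mean fewer cells with the transcript or less of it per cell. UMI counts are not scaled by gene length, so levels are compared between libraries and cell types within a gene.

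Promoter windows of 300 bases, 250 before and 50 after the annotated start, were taken from the RefSeq annotation on GRCm38.p6 and matched for 30 of the 33 genes. They are shown for the 4 genes of lower level in c-Maf KO cells for which a window was matched, for adrenomedullin, which was higher, and for Ldha, whose level was close in both libraries. Capitals mark the hypoxia response element core, ACGTG or GCGTG on the printed strand, or CACGT or CACGC where it lies on the other strand. The letters CACGTG hold the core on both strands and count as 2 matches. Bnip3 lies on the minus strand and the others on the plus strand, and each window runs 5′ to 3′ along its gene.
P4ha1, chr10:59323046-59323345: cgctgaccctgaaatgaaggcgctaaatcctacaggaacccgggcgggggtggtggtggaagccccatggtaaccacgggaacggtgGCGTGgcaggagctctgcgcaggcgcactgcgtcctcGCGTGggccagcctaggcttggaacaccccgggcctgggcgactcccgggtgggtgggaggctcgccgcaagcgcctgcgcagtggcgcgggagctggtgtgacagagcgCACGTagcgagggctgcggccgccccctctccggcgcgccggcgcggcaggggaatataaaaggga
Bnip3, chr7:138909457-138909756: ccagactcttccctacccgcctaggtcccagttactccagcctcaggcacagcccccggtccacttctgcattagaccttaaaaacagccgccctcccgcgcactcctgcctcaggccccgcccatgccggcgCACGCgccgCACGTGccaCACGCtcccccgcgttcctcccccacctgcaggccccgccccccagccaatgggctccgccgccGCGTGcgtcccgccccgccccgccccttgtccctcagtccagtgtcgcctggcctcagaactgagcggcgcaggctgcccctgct
Slc16a1, chr3:104638414-104638713: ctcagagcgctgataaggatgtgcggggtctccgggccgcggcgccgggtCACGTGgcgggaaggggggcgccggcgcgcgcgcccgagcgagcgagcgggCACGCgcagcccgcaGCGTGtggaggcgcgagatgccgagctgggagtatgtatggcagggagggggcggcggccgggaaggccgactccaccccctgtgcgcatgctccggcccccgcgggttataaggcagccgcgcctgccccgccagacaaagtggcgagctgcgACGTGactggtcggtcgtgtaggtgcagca
Slc16a3, chr11:120948817-120949116: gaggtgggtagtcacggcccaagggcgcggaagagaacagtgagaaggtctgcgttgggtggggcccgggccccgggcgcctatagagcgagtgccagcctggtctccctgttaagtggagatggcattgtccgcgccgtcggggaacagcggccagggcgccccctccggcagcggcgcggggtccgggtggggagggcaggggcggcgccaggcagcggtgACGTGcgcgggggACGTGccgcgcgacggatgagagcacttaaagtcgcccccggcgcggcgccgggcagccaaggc
Adm, chr7:110627407-110627706: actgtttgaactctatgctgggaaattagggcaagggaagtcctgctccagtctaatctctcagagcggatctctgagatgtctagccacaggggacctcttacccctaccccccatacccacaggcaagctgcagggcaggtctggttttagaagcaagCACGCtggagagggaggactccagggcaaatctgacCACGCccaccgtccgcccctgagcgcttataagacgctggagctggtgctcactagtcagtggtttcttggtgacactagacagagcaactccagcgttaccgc
Ldha, chr7:46845554-46845853: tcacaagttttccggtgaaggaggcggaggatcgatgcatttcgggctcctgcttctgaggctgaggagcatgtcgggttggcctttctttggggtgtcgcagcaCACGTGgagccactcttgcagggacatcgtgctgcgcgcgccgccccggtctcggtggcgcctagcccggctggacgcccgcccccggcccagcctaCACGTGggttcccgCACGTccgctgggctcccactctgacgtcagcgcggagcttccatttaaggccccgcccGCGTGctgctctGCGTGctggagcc

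The core was matched 3 times in the P4ha1 window, 5 times in that of Bnip3, 5 times in that of Slc16a1 and 2 times in that of Slc16a3. The Adm window held 2 matches, both of GCGTG, and the Ldha window shown held 7. Ldha had another window, not shown, at a second annotated start, which held 2 matches, both of GCGTG. At least 1 promoter window held a match in 27 of the 30 genes (90%), against 12628 of all 27025 genes with a window (46.7%). The 30 genes had 43 windows and all 27025 genes had 32851, and neither the number of windows per gene nor their base content was matched. The list was chosen in part as genes switched on by hypoxia, so a share above that of all genes is no independent result. The form ACGTG was found in 21 of the 30 genes (70%), against 5886 of all genes (21.8%). Gpi1, Tpi1 and Eno2 had no match in their windows. Genes with and without a call in c-Maf KO cells both carried the core, and a match is a description of these letters, not a bound site.

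Across all endothelial cells, 13 of the 15 enzymes of glycolysis compared were not called, and the calls fell on 2 phosphofructokinase genes, a glucose transporter, both lactate transporters, Epas1 and 3 genes of the hypoxia response. Of the 33 genes, 31 had enough UMIs to be compared. In c-Maf KO cells 4 of these were higher, namely Slc2a3, Pfkm, Pfkp and Adm, and 5 were lower, namely Slc16a1, Slc16a3, Bnip3, Epas1 and P4ha1. The other 22 were not called. With each cell thinned to 1128 UMIs, 1 gene was higher, Adm, and 6 were lower, with Pfkfb3 added, while Pfkp missed the rule and Slc2a3 and Pfkm had too few UMIs. No share over all genes is given after thinning, so those counts describe the listed genes alone. Without thinning, the same rule called 14.2% of all 11927 genes compared higher and 15.5% lower, so 4 of 31 (12.9%) and 5 of 31 (16.1%) are close to the background. The median log2 ratio of the 31 genes, c-Maf KO over control, was -0.17, beside -0.08 for all genes. Aldoc, an aldolase of brain, had 3 UMIs in c-Maf KO and 5 UMIs in control cells, and Eno2, the neuronal enolase, had 1 UMI in each.

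**Figure D1:**
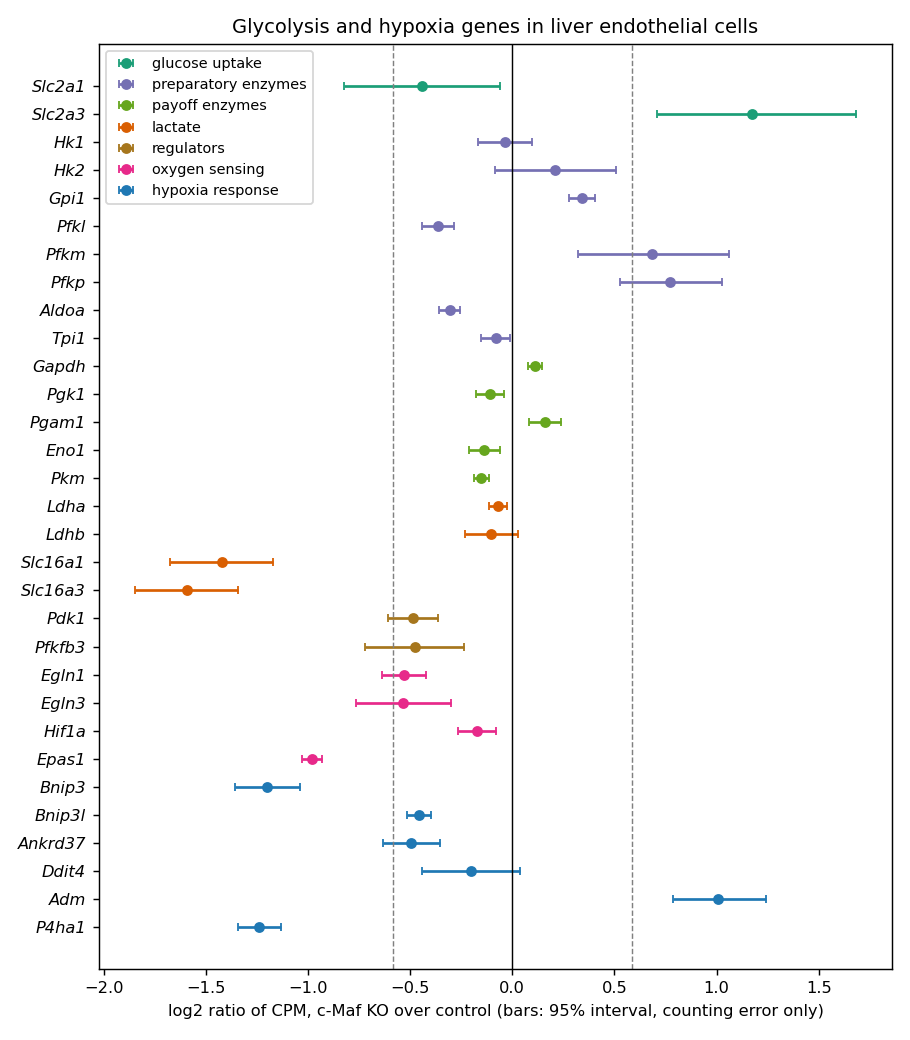
Log2 ratio of CPM in c-Maf KO over control endothelial cells for the 31 genes compared, coloured by role, with 95% intervals for counting error (bars) and the 1.5-fold limits (dashed lines). The enzymes from Hk1 to Ldhb lie between -0.36 and 0.34 except Pfkm and Pfkp, whereas Slc16a1, Slc16a3, Bnip3, P4ha1 and Epas1 lie at -0.98 or below.

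Glucose enters cells through facilitative transporters. Slc2a1, which encodes the widespread transporter GLUT1, had 5.30 CPM in c-Maf KO and 7.21 CPM in control endothelial cells, a log2 ratio of -0.44 that missed the rule. Slc2a3, which encodes the high-affinity transporter GLUT3, had 6.72 CPM in c-Maf KO and 2.96 CPM in control cells. Its log2 ratio was 1.17 (95% interval 0.71 to 1.68), from 152 UMIs in c-Maf KO and 48 UMIs in control cells. Both transporters were sparse. A Slc2a3 UMI was found in 4.75% of c-Maf KO cells and 1.36% of control cells. With each cell thinned to 1128 UMIs the shares were 0.761% in c-Maf KO and 0.309% in control endothelial cells, close to the 0.604% in c-Maf KO and 0.330% in control cells of B2, a B cell cluster. Within the c-Maf KO library, KOS_2 held Slc2a3 at 19.8 CPM and KOS_1 at 6.47 CPM, and without KOS_2 in both libraries the log2 ratio was 1.26. GLUT1 made up 44.1% of the UMIs of the pair in c-Maf KO cells (95% binomial interval 38.1 to 50.2, Clopper-Pearson) and 70.9% in control cells (63.3 to 77.7). Among cells tied to the females by Xist UMIs it made up 45.7% in c-Maf KO and 82.8% in control. Cells tied to the males by Y-linked UMIs had 54.2% in c-Maf KO (39.2 to 68.6) and 60.6% in control (42.1 to 77.1). Slc2a1 itself was lower in c-Maf KO among females, at 5.17 against 11.3 CPM, but higher among males, at 8.74 against 3.42 CPM.

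In the preparatory steps, hexokinase traps glucose as glucose 6-phosphate, and phosphofructokinase commits it to glycolysis. Hk1 stood at 49.1 CPM in c-Maf KO and 50.3 CPM in control cells, and Hk2, the inducible form, at 11.1 CPM in c-Maf KO and 9.55 CPM in control cells. Gpi1, the isomerase between the 2 sugar phosphates, had 244 CPM in c-Maf KO and 192 CPM in control cells, and its log2 ratio of 0.34 (0.28 to 0.41) was the highest among the enzymes that were not called. Aldoa, which splits fructose 1,6-bisphosphate, had 272 CPM in c-Maf KO and 336 CPM in control cells (log2 ratio -0.31). Tpi1, which interconverts the 2 triose phosphates, had 166 CPM in c-Maf KO and 176 CPM in control cells. These 5 genes differed by less than 1.5-fold.

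Phosphofructokinase was the only step whose enzyme genes passed the rule in the comparison of all endothelial cells, and its 3 genes differed from each other. Pfkl, the liver form, had 120 CPM in c-Maf KO and 155 CPM in control cells (log2 ratio -0.36, -0.44 to -0.29). Pfkp, the platelet form, had 20.3 CPM in c-Maf KO and 11.9 CPM in control cells, a log2 ratio of 0.77 (0.53 to 1.02). Pfkm, the muscle form, had 9.02 CPM in c-Maf KO and 5.60 CPM in control cells, a log2 ratio of 0.68 (0.32 to 1.06). As a share of the UMIs of the 3 genes, Pfkl made up 80.4% in c-Maf KO (79.0 to 81.7) and 89.8% in control cells (88.7 to 90.9), a comparison that no scaling of the libraries can alter. Pfkp made up 13.6% in c-Maf KO and 6.90% in control cells, and Pfkm 6.03% in c-Maf KO and 3.25% in control cells. With each cell thinned to 1128 UMIs, Pfkm was seen in 16 of 2760 c-Maf KO cells and 15 of 2585 control cells, 0.580% in both. With each cell weighted the same the log2 ratio of Pfkm was 0.46, which missed the rule.

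**Figure D2:**
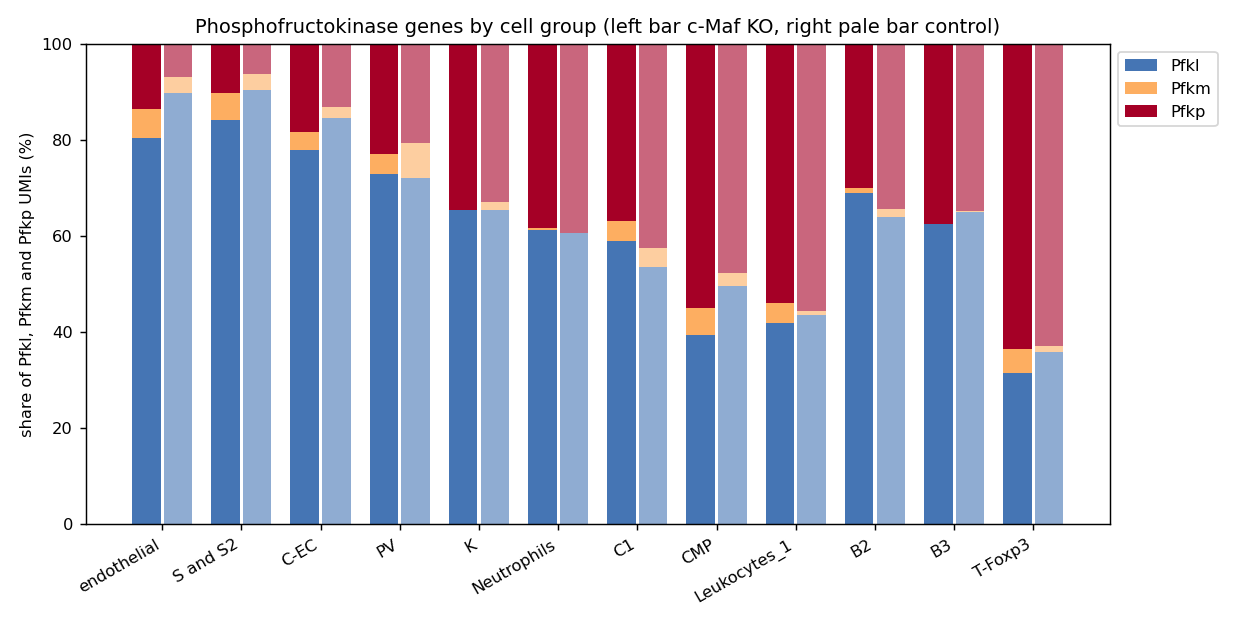
Share (%) of each gene among the UMIs of Pfkl, Pfkm and Pfkp, by cell group, with the c-Maf KO library as the left bar and the control library as the paler right bar of each pair. Pfkl takes 80.4% in c-Maf KO and 89.8% in control endothelial cells, while in the T-Foxp3 cluster Pfkp takes the most, at 63.5% in c-Maf KO and 63.0% in control cells.

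The payoff enzymes, which turn triose phosphates into pyruvate and yield ATP, were the most abundant of the set and differed little. Gapdh, which oxidises glyceraldehyde 3-phosphate, had 726 CPM in c-Maf KO and 673 CPM in control cells (log2 ratio 0.11). Pkm, pyruvate kinase, had 557 CPM in c-Maf KO and 619 CPM in control cells (log2 ratio -0.15). Pgk1, Pgam1 and Eno1, which carry the steps between, had log2 ratios of -0.11, 0.16 and -0.14. Of the 15 enzymes from hexokinase to lactate dehydrogenase with enough UMIs, 2 were higher, none was lower and 13 were not called, with a median log2 ratio of -0.07. Eno1b, a near-identical copy of Eno1 with a row of its own, had 25 UMIs in c-Maf KO and 21 UMIs in control endothelial cells. The second Aldoa row had 1 UMI in c-Maf KO and 2 UMIs in control cells. Few UMIs were thus counted in these copies, but reads that match more than 1 copy were not examined. Scaling to a total without mitochondrial, ribosomal, hemoglobin and Malat1 UMIs moved every log2 ratio up by 0.16. This turned the small negative ratios of Hk1, Tpi1, Pgk1, Eno1, Pkm, Ldha and Ldhb positive and added no call.

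Lactate handling split into enzymes that were alike and transporters that were not. Ldha, which makes lactate from pyruvate, had 449 CPM in c-Maf KO and 472 CPM in control cells (log2 ratio -0.07), and Ldhb, which favours the reverse reaction, had 49.4 CPM in c-Maf KO and 53.1 CPM in control cells. Ldha held 90.1% of the UMIs of the pair in c-Maf KO and 89.9% in control cells. Slc16a1, the lactate transporter MCT1, had 8.84 CPM in c-Maf KO and 23.7 CPM in control cells, a log2 ratio of -1.42 (-1.68 to -1.17). Slc16a3, the lactate exporter MCT4, had 8.49 CPM in c-Maf KO and 25.6 CPM in control cells, a log2 ratio of -1.59 (-1.85 to -1.34). Both were lower in c-Maf KO cells, by 2.68-fold and 3.01-fold. Cells tied to the males by Y-linked UMIs did not show this for Slc16a3, with 13.8 CPM in c-Maf KO and 14.0 CPM in control cells. With each cell thinned to 1128 UMIs, a Slc16a1 UMI was found in 1.05% of c-Maf KO cells (0.705 to 1.51) and 2.28% of control cells (1.74 to 2.93), and a Slc16a3 UMI in 0.978% of c-Maf KO cells (0.646 to 1.42) and 3.02% of control cells (2.39 to 3.75). The thinned Slc16a1 share of B2 cells was 0.966% in c-Maf KO and 0.660% in control. Before thinning, Slc16a3 UMIs were found in 5.82% of c-Maf KO and 11.8% of control endothelial cells, against 0.626% of c-Maf KO and 0.241% of control cells of B3, a B cell cluster with median depths of 3612 UMIs in c-Maf KO and 4414 UMIs in control.

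Neither of the 2 regulators was called. Pdk1, the kinase that shuts pyruvate out of mitochondria by inhibiting pyruvate dehydrogenase, had 47.7 CPM in c-Maf KO and 66.8 CPM in control cells (log2 ratio -0.49, -0.61 to -0.36). Pfkfb3, which makes the activator of phosphofructokinase and drives glycolysis in sprouting endothelium, had 12.4 CPM in c-Maf KO and 17.2 CPM in control cells (log2 ratio -0.48, -0.72 to -0.23). Both intervals lay below equality.

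Among the genes of the oxygen-sensing machinery, Epas1 stood out. Epas1 (chr17:86753700-86833410, plus strand, in the GENCODE annotation of GRCm38) encodes HIF-2 alpha, the hypoxia-inducible factor characteristic of endothelium. It had 248 CPM in c-Maf KO cells and 489 CPM in control cells, a log2 ratio of -0.98 (-1.03 to -0.93), just short of a 2-fold change. Hif1a, the ubiquitous alpha subunit, had 92.3 CPM in c-Maf KO and 104 CPM in control cells (log2 ratio -0.17). Hif1a therefore made up 27.1% of the UMIs of the pair in c-Maf KO cells (26.2 to 28.2) and 17.6% in control cells (16.8 to 18.3). The prolyl hydroxylase genes Egln1 and Egln3, which encode PHD2 and PHD3, had log2 ratios of -0.53 each, with 61.9 CPM for Egln1 in c-Maf KO and 89.5 CPM in control cells. With each cell thinned to 1128 UMIs, an Epas1 UMI was found in 24.7% of c-Maf KO (23.1 to 26.3) and 41.7% of control cells (39.8 to 43.6). Among cells that should lack it, B3 gave 0.418% in c-Maf KO and 0.361% in control. The shares were higher in control in B2, at 0.362% in c-Maf KO and 1.49% in control. The same held in the T-Gzm cluster, at 0.730% in c-Maf KO and 1.57% in control.

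The genes that hypoxia-inducible factors are known to raise did not move together. P4ha1, the collagen prolyl 4-hydroxylase subunit, had 52.1 CPM in c-Maf KO and 123 CPM in control cells, a log2 ratio of -1.24 (-1.34 to -1.13). Bnip3, a mitophagy receptor, had 23.0 CPM in c-Maf KO and 52.8 CPM in control cells, a log2 ratio of -1.20 (-1.36 to -1.04). Both were lower past the rule. The related receptor Bnip3l had 209 CPM in c-Maf KO and 286 CPM in control cells (log2 ratio -0.45), and Ankrd37, an ankyrin repeat gene of the hypoxia response, had 37.1 CPM in c-Maf KO and 52.3 CPM in control cells (log2 ratio -0.50). Ddit4, an inhibitor of mTORC1 signalling, had 14.0 CPM in c-Maf KO and 16.1 CPM in control cells, with an interval that includes equality. Adm, the vasoactive peptide adrenomedullin, went the other way, with 27.2 CPM in c-Maf KO and 13.5 CPM in control cells, a log2 ratio of 1.01 (0.79 to 1.24). With each cell thinned to 1128 UMIs, Adm was seen in 2.68% of c-Maf KO (2.11 to 3.35) and 1.24% of control cells (0.848 to 1.74). In B2 cells, where the libraries did not differ past the rule, the thinned shares for Adm were 2.05% in c-Maf KO and 2.15% in control, above that of control endothelial cells. A P4ha1 UMI was seen in 4.93% of c-Maf KO (4.15 to 5.80) and 11.7% of control cells (10.5 to 13.0), against 1.09% in c-Maf KO and 0.825% in control B2 cells. Over the 10 genes of oxygen sensing and the hypoxia response, the median log2 ratio was -0.51, with 3 lower, 1 higher and 6 that were not called. The shares over all genes compared were 15.5% lower and 14.2% higher, with a median of -0.08.

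Other genes of these pathways were counted in the same cells. Of 32 other hypoxia genes, 24 could be compared in endothelial cells, and 11 of these (45.8%) were lower and 2 (8.33%) higher in c-Maf KO cells, with a median log2 ratio of -0.46. Over all genes the shares were 15.5% and 14.2%. The lowest was Vegfa, the endothelial growth factor, at 10.3 CPM in c-Maf KO and 45.8 CPM in control cells (log2 ratio -2.16). Next came Loxl2, a lysyl oxidase that crosslinks collagen, at 40.8 CPM in c-Maf KO and 127 CPM in control cells, Angptl4, an inhibitor of lipoprotein lipase, at 1.99 CPM in c-Maf KO and 5.11 CPM in control cells, and Ndrg1, a stress-induced gene, at 88.0 CPM in c-Maf KO and 216 CPM in control cells. Those higher were Edn1, the vasoconstrictor endothelin 1, at 18.0 CPM in c-Maf KO and 8.07 CPM in control cells, and Plod2, a lysyl hydroxylase, at 8.13 CPM in c-Maf KO and 4.37 CPM in control cells. Neither was called among female-type cells, those with Xist and no Y-linked UMI. Edn1 had a log2 ratio of 0.23 there and Plod2 one of 0.27. Of 24 genes, 12 (50%) were lower in these cells, against 13.6% of all genes. Edn1 had a log2 ratio of 3.07 among male-type cells. In S and S2, 2 of 24 genes (8.33%) were lower, against 3.75% of all genes. These were Vegfa and Stc2 (Stc2 is named after its value was seen). Plod2 was the 1 gene higher there (4.17%, against 3.68% of all genes), with a log2 ratio of 1.23 (0.17 to 2.10). Ndrg1 had a log2 ratio of -0.09 there and Loxl2 one of -0.15.

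Of 41 other genes of glycolysis and linked steps, 24 could be compared, with 6 lower (25%), 2 higher (8.33%) and a median log2 ratio of -0.10. Over all genes 15.5% were lower and 14.2% higher. The higher ones were Pdk3, another pyruvate dehydrogenase kinase (log2 ratio 1.19), and Tigar, a fructose 2,6-bisphosphatase (log2 ratio 1.14). Among the lower ones were Pfkfb2 (log2 ratio -0.89), Fbp1, an enzyme of gluconeogenesis (log2 ratio -0.86), and Pgm2 (log2 ratio -0.85). The 10 hepatocyte markers, which include albumin, summed to 62.3 CPM in c-Maf KO and 179 CPM in control endothelial cells, with 8 of 10 lower and none at 0. Kupffer cell markers summed to 30.5 CPM in c-Maf KO and 306 CPM in control cells, with 7 of 7 compared lower, and stellate cell markers to 26.7 CPM in c-Maf KO and 57.6 CPM in control cells, with 4 of 6 lower. B cell markers summed to 102 CPM in c-Maf KO and 47.7 CPM in control cells, with 5 of 6 higher. The 6 sinusoidal markers, all lower, summed to 2150 CPM in c-Maf KO and 9852 CPM in control cells. Their part in the values of Fbp1 and the hypoxia genes was not tested. Leaving out the 10% of cells richest in markers of other cell types left the log2 ratio of P4ha1 at -1.25, that of Epas1 at -1.01 and that of Slc16a3 at -1.59. The 10 cycling markers summed to 714 CPM in c-Maf KO and 238 CPM in control endothelial cells, with 10 of 10 higher, and none of the 9 calls was lost without the cells that held one.

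Each library pooled a male and a female, and cells can be tied to them where a sex-linked transcript was caught. Female-type cells held an Xist UMI and none of 4 Y-linked genes, and male-type cells the reverse. The authors' own sex call was the same for every one of these endothelial cells. It also covered 971 c-Maf KO and 1330 control endothelial cells of neither type, of which it called 930 in c-Maf KO and 1292 in control male. The c-Maf KO library gave 1692 female-type and 328 male-type endothelial cells, and the control library 772 female-type and 846 male-type cells. Each type is thus 1 mouse, not a replicate of its group. Of the 31 genes, 13 lay lower in both c-Maf KO types than in both control types (41.9%, against 39.8% of all 11662 genes), 5 lay higher in both (16.1%, against 29.1%), and 13 overlapped. These shares are close to or below the background. In female-type cells 4 genes were called higher and 7 lower, where 25.2% of all genes were called, and in male-type cells 5 of 29 were called higher and 5 lower, where 37.4% of all genes were called.

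**Figure D3:**
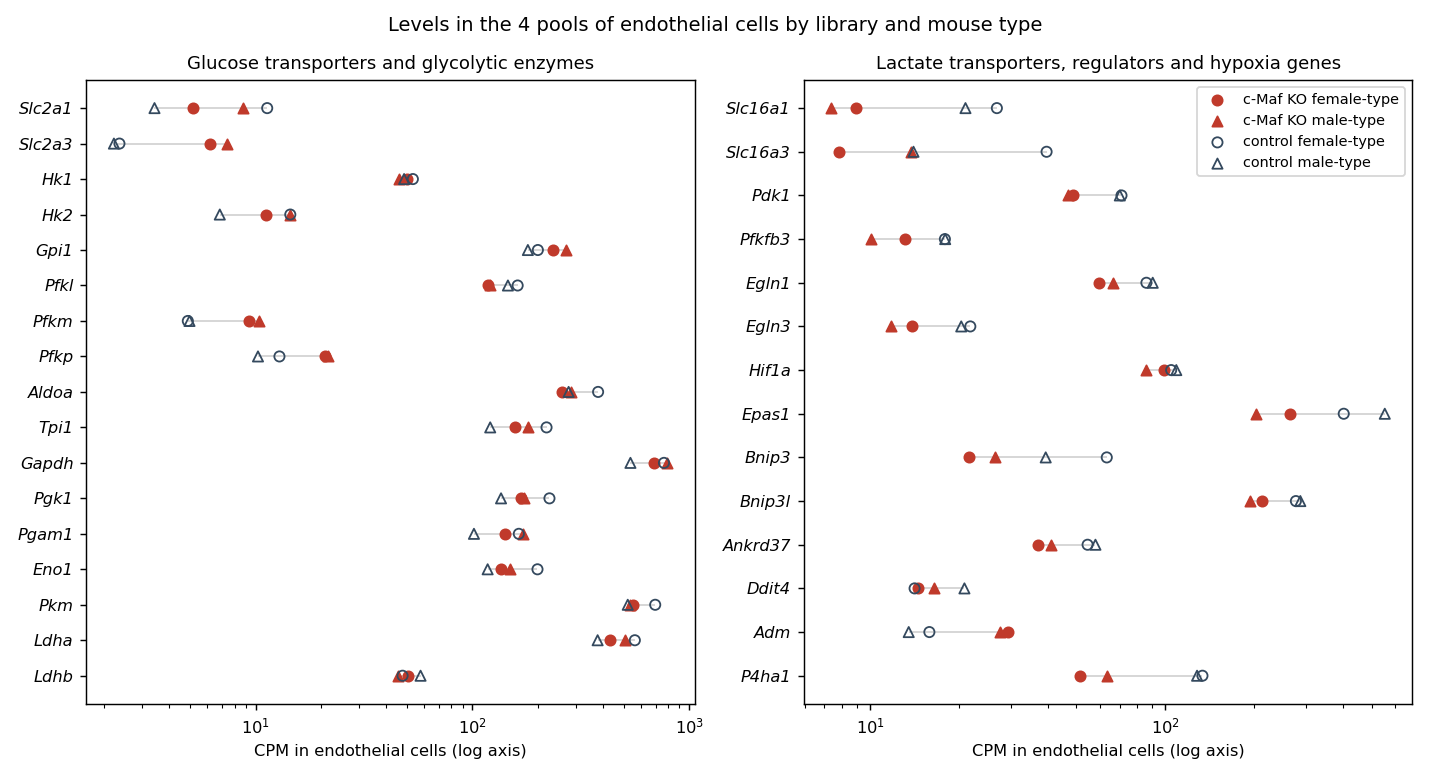
Level in CPM (log axis) of the 31 genes in endothelial cells of each library and mouse type, c-Maf KO in filled red and control in open dark symbols, circles for female-type and triangles for male-type cells. P4ha1, Epas1, Slc16a1 and Adm separate the c-Maf KO pools from the control pools, whereas for Gapdh, Ldha, Tpi1 and Eno1 the 2 control pools lie farthest apart or nearly so.

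The lactate transporter Slc16a1 was lower in both c-Maf KO types, with 8.98 CPM in female-type and 7.40 CPM in male-type c-Maf KO cells, against 26.9 CPM in female-type and 21.0 CPM in male-type control cells. P4ha1 had 51.4 CPM in female-type and 63.5 CPM in male-type c-Maf KO cells, against 134 and 128 CPM in female-type and male-type control cells. Epas1 had 264 CPM in female-type and 203 CPM in male-type c-Maf KO cells, against 402 and 554 CPM in female-type and male-type control cells. Slc16a1, P4ha1, Epas1 and Adm, the last with 29.2 CPM in female-type and 27.6 CPM in male-type c-Maf KO cells against 15.9 and 13.5 CPM in female-type and male-type control cells, passed the rule within each type, as did Pfkm and Pfkp. Egln3, which was not called in all cells, was lower in both types, with 13.9 CPM in female-type and 11.8 CPM in male-type c-Maf KO cells, against 21.8 and 20.4 CPM in female-type and male-type control cells. Bnip3 had 21.6 CPM in female-type and 26.6 CPM in male-type c-Maf KO cells, against 63.3 and 39.3 CPM in female-type and male-type control cells, and its log2 ratio of -0.56 in male-type cells missed the rule. Slc16a3 rested on the control female: it had 7.87 CPM in female-type and 13.8 CPM in male-type c-Maf KO cells, against 39.6 CPM in female-type but 14.0 CPM in male-type control cells. Female-type cells thus gave a log2 ratio of -2.33 for Slc16a3, and male-type cells one of -0.02.

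The sum of the glycolytic enzymes showed another pattern. Summed over 17 enzymes, their level was 3028 CPM in female-type and 3316 CPM in male-type c-Maf KO endothelial cells, against 3705 CPM in female-type and 2639 CPM in male-type control cells. The control pools thus bracketed both c-Maf KO pools in the sum, and did so for 6 of the 15 enzymes compared. Of these 15, 9 were highest in the control female-type cells and 10 lowest in the control male-type cells. No share over all genes is given for these counts, so they describe the 15 enzymes alone. Gapdh had 690 CPM in female-type and 791 CPM in male-type c-Maf KO cells, against 764 and 535 CPM in female-type and male-type control cells. Ldha had 431 CPM in female-type and 506 CPM in male-type c-Maf KO cells, against 561 and 378 CPM in female-type and male-type control cells. The hematopoietic cells of the same libraries, pooled over their clusters, gave the same order of the control pools, with summed enzymes at 3064 CPM in female-type and 3574 CPM in male-type c-Maf KO cells, against 3293 CPM in female-type and 2599 CPM in male-type control cells. In endothelial cells the 8 immediate early genes, which many stimuli induce, had 2349 CPM in female-type and 2338 CPM in male-type c-Maf KO cells. Control cells had 3668 CPM in female-type and 1633 CPM in male-type cells, the same order of the control pools. In hematopoietic cells they had 2822 CPM in female-type and 3412 CPM in male-type c-Maf KO cells. Hematopoietic control cells had 3808 and 2962 CPM in female-type and male-type cells, so the lowest pool there was the c-Maf KO female-type one. Cycling markers had 730 CPM in female-type and 625 CPM in male-type c-Maf KO endothelial cells, against 381 CPM in female-type and 118 CPM in male-type control cells. In hematopoietic cells they had 1519 CPM in female-type and 1543 CPM in male-type c-Maf KO cells, against 1415 CPM in female-type and 495 CPM in male-type control cells. The part of these genes in the enzyme levels was not tested.

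For Tpi1, Gapdh, Pgk1, Pgam1, Eno1 and Ldha the log2 ratios of the types had opposite signs, negative among females and positive among males, with each interval clear of equality. No share over all genes is given for this pattern. Pgam1, phosphoglycerate mutase, passed the rule in male-type cells, with a log2 ratio of 0.76, while female-type cells had -0.22.

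The subtypes of endothelium were compared next. In S and S2, where the c-Maf KO library had 336 cells and the control library 2779 cells, 2 of 30 genes were called, where 7.43% of all genes were. These were Slc16a1, at 15.1 CPM in c-Maf KO and 23.6 CPM in control cells, and P4ha1, at 83.0 CPM in c-Maf KO and 126 CPM in control cells. Epas1 had 442 CPM in c-Maf KO and 494 CPM in control cells of S and S2 (log2 ratio -0.16), Bnip3 38.6 CPM in c-Maf KO and 54.5 CPM in control cells, and Adm 15.1 CPM in c-Maf KO and 13.2 CPM in control cells. None of the 336 c-Maf KO cells was male-type and 247 were female-type, so in these clusters the library and the mouse cannot be told apart. Against female-type control cells of S and S2, 6 of 29 genes were lower in female-type c-Maf KO cells, where 8.20% of all genes were called in either direction, among them Slc16a3, at 19.6 CPM in c-Maf KO and 42.1 CPM in control cells, and Eno1, at 128 CPM in c-Maf KO and 206 CPM in control cells. In the same cells immediate early genes summed to 1610 CPM in c-Maf KO and 3656 CPM in control, heat shock genes to 302 CPM in c-Maf KO and 533 CPM in control, and erythroid markers to 437 CPM in c-Maf KO and 44.2 CPM in control, and their part in the 6 genes was not tested.

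Cells of the c-Maf KO female allowed clusters with and without Maf to be set side by side within 1 mouse and 1 library. The clusters were made from these same counts, so the values are a description. Maf had 9.80 CPM in the 1070 female-type cells of KOS_1 and KOS_3, and 1800 CPM in the 247 female-type cells of S and S2. P4ha1 had 50.5 CPM in KOS_1 and KOS_3 and 90.0 CPM in S and S2, and Epas1 246 CPM in KOS_1 and KOS_3 and 444 CPM in S and S2. Slc16a1 had 6.28 CPM in KOS_1 and KOS_3 and 16.2 CPM in S and S2, and Slc16a3 7.21 CPM in KOS_1 and KOS_3 and 19.6 CPM in S and S2. Adm had 33.8 CPM in KOS_1 and KOS_3 and 16.2 CPM in S and S2. Those 5 genes and Bnip3, at 22.5 CPM in KOS_1 and KOS_3 and 36.4 CPM in S and S2, differed within this mouse in the direction in which the libraries differed. For Slc2a3, Pfkm and Pfkp the interval of the log2 ratio between these clusters included equality, from -0.24 to 2.73, from -0.37 to 1.35 and from -0.11 to 1.15. Gapdh, at 680 CPM in KOS_1 and KOS_3 and 643 CPM in S and S2, and Tpi1, at 151 CPM in KOS_1 and KOS_3 and 148 CPM in S and S2, stood close.

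**Figure D4:**
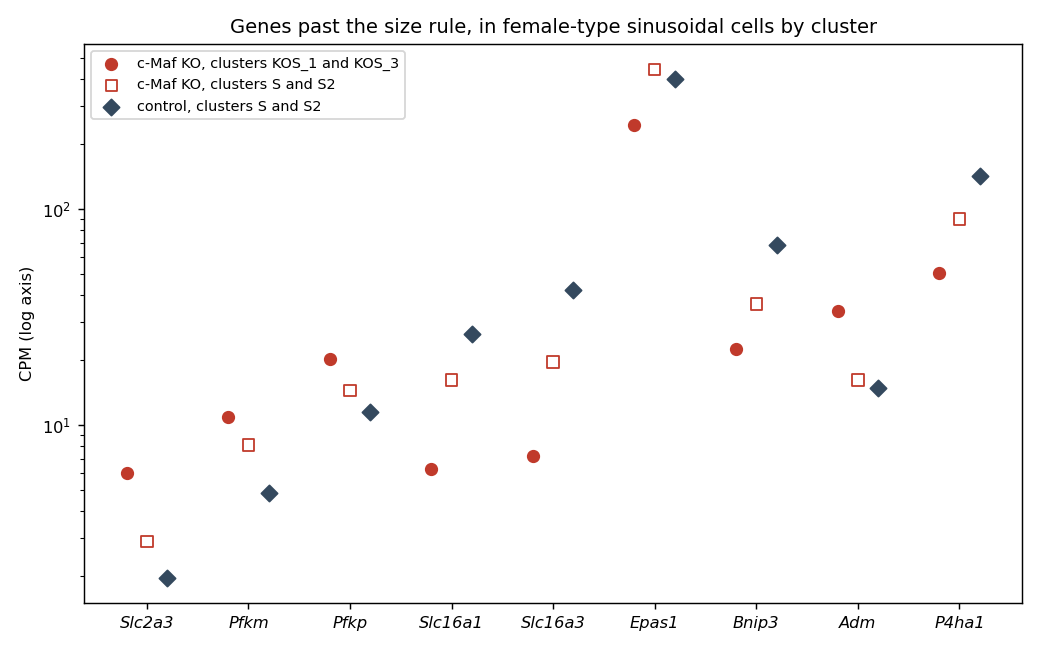
Level in CPM (log axis) of the 9 genes called in endothelial cells, in female-type sinusoidal cells only: c-Maf KO cells of KOS_1 and KOS_3 (filled circles), c-Maf KO cells of S and S2, which keep Maf (open squares), and control cells of S and S2 (diamonds). For 8 of the 9 genes the c-Maf KO cells of S and S2 lie between the other 2 sets, and for Epas1 they lie above both, at 444 CPM against 246 CPM in KOS_1 and KOS_3 and 403 CPM in control cells.

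In cycling endothelium (C-EC, 408 c-Maf KO and 89 control cells) 2 of 23 genes were called, where 20.3% of all genes were. They were Epas1, at 179 CPM in c-Maf KO and 350 CPM in control cells, and P4ha1, at 40.8 CPM in c-Maf KO and 98.8 CPM in control cells. In large vessel endothelium (PV, 135 c-Maf KO and 56 control cells) none of 19 genes was called, where 12.3% of all genes were. P4ha1 had 45.7 CPM in c-Maf KO and 46.1 CPM in control PV cells, with an interval of its log2 ratio from -0.78 to 0.81, and Epas1 had 392 CPM in c-Maf KO and 553 CPM in control PV cells, a log2 ratio of -0.50 (-0.73 to -0.26). Ddit4 was high in these cells of both libraries, at 104 CPM in c-Maf KO and 101 CPM in control PV cells, against 14.0 and 16.1 CPM over all c-Maf KO and control endothelial cells.

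The hematopoietic cells served to show how the genes behaved in the same 2 libraries outside the endothelium. In 12 clusters with at least 50 cells per library, between 0 and 2 of 16 to 26 genes were called in each. No gene was called in B1, CLP, CMP, T-Cd6 and T-Foxp3, where 3.71%, 5.43%, 5.73%, 4.40% and 3.72% of all genes were. In the B cell clusters, Hk1 and Ankrd37 were higher in c-Maf KO cells of B2 (3.65% of all genes called) and Adm in those of B3 (3.06%), where the log2 ratio of Adm was 0.64. In C1, Hk1 and Pdk1 were higher (3.69%). C1 had cycling markers at 4658 CPM in c-Maf KO and 4942 CPM in control cells, B cell markers at 4909 CPM in c-Maf KO and 4639 CPM in control cells, and neutrophil markers at 1764 CPM in c-Maf KO and 1939 CPM in control cells, and is called here by the authors' name alone.

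The genes called lower in hematopoietic clusters were Epas1 and P4ha1. In the macrophage cluster K (11.1% of all genes called), Epas1 had 37.0 CPM in c-Maf KO and 71.3 CPM in control cells, and P4ha1 68.5 CPM in c-Maf KO and 104 CPM in control cells. In T-Gzm (7.50%), Epas1 had 5.87 CPM in c-Maf KO and 32.6 CPM in control cells. In Leukocytes_1 (4.79%), Epas1 had 6.35 CPM in c-Maf KO and 20.5 CPM in control cells, and in Neutrophils (8.76%), P4ha1 had 7.77 CPM in c-Maf KO and 14.7 CPM in control cells. The 6 sinusoidal markers summed in these cells to 564 CPM in c-Maf KO and 1492 CPM in control cells of K, to 65.3 and 747 CPM in c-Maf KO and control cells of T-Gzm, to 132 and 298 CPM in c-Maf KO and control cells of Leukocytes_1, and to 73.5 and 290 CPM in c-Maf KO and control cells of Neutrophils. The same markers were also lower in CMP, at 105 CPM in c-Maf KO and 596 CPM in control cells. In CLP they had 69.7 CPM in c-Maf KO and 437 CPM in control cells. No gene was called in these 2 clusters. Only 17 of the 33 genes in CMP and 16 in CLP had enough UMIs to be compared, so genes of low level could not be called there. The 6 general endothelial markers stood close in Leukocytes_1, at 135 CPM in c-Maf KO and 143 CPM in control cells. In the other clusters with a lower call they were lower in c-Maf KO. They had 784 CPM in c-Maf KO and 1309 CPM in control cells of K. In T-Gzm they had 206 and 534 CPM, and in Neutrophils 113 and 183 CPM, in c-Maf KO and control cells. The part of both marker sets in these 5 calls was not tested.

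Across cell types the genes differed far more than between the libraries. Epas1 was an endothelial gene in both, at 176 to 480 CPM in the 7 endothelial clusters of the c-Maf KO library and at 37.0 CPM or less in the hematopoietic ones, whereas S, S2, C-EC and PV of the control library held 350 to 553 CPM and hematopoietic clusters 71.3 CPM or less. Slc2a3 peaked in Neutrophils, at 247 CPM in c-Maf KO and 212 CPM in control cells, and Slc16a3 there too, at 147 CPM in c-Maf KO and 144 CPM in control cells. Slc16a1, the other lactate transporter, peaked in C1 instead, at 86.9 CPM in c-Maf KO and 79.4 CPM in control cells, and had 1.06 CPM in c-Maf KO and 2.10 CPM in control neutrophils. Ldhb was low in B cells, at 1.09 CPM in c-Maf KO and 0.926 CPM in control B2 cells, while endothelial cells held 49.4 and 53.1 CPM in c-Maf KO and control. Hk2 was highest in Leukocytes_1, at 92.5 CPM in c-Maf KO and 99.2 CPM in control cells, in Neutrophils, at 71.4 CPM in c-Maf KO and 78.6 CPM in control cells, and in K, at 66.3 CPM in c-Maf KO and 99.6 CPM in control cells. In K, Hk1 made up 19.7% of the hexokinase UMIs in c-Maf KO and 20.4% in control cells, against 81.6% and 84.1% in c-Maf KO and control endothelial cells. Gapdh was highest in C1, at 1532 CPM in c-Maf KO and 1513 CPM in control cells, in Neutrophils, at 1523 and 1705 CPM in c-Maf KO and control, and in T-Foxp3, at 1424 and 1400 CPM in c-Maf KO and control.

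**Figure D5:**
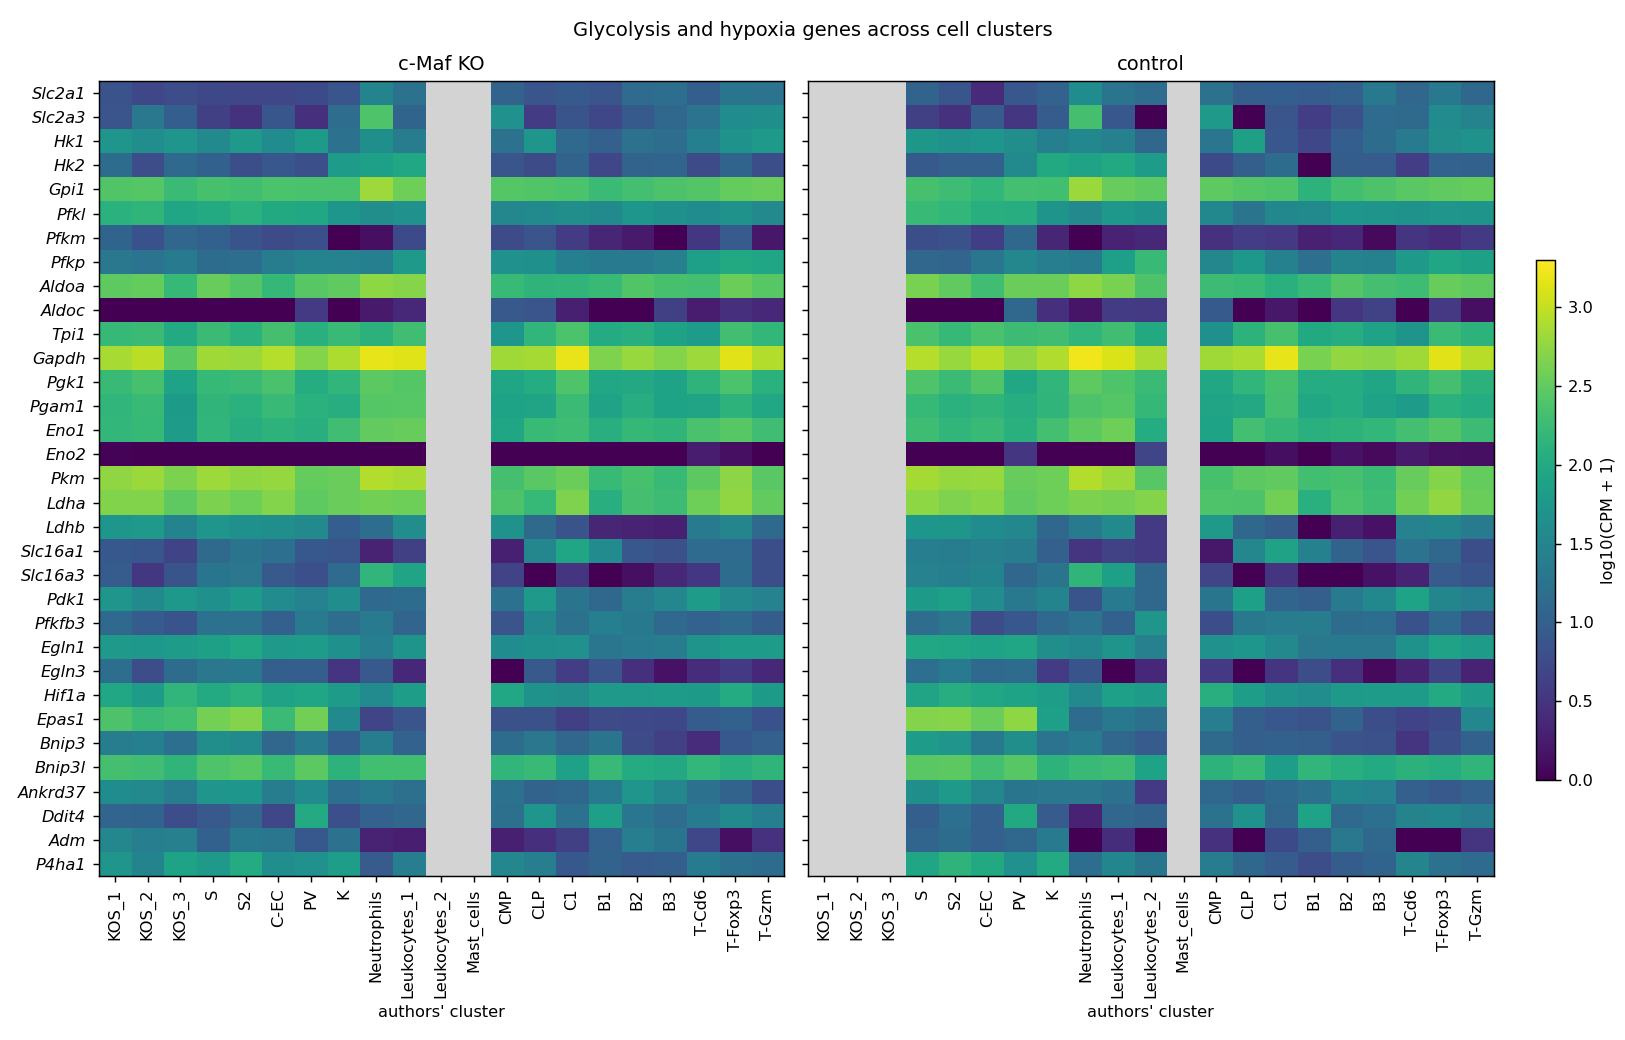
Level of the 33 genes, as log10(CPM + 1), in the authors' clusters of the c-Maf KO library (left) and the control library (right), with clusters of under 50 cells in a library left grey. Epas1, Egln3 and Pfkl are brightest in the endothelial clusters, Slc2a3 and Slc16a3 in Neutrophils and Slc16a1 in C1, in both libraries.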

How the data were processed

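Droplet single-cell RNA sequencing (10X Chromium, per the labels) gave 1 c-Maf KO and 1 control library. The authors deposited raw UMI counts per gene and cell, and an annotation with UMI and gene counts, the percent of mitochondrial UMIs, genotype, a sex call and cluster names per cell. The submitters' processing notes name mm10, Seurat 3.2.3, Cell Ranger 4.0.0 and FastQC 0.11.3, without their settings. The authors' deposited percent of mitochondrial UMIs stayed under 20 in annotated cells. Annotated cells were kept (8166 c-Maf KO and 7669 control), with 60281713 and 54143192 UMIs over all c-Maf KO and control barcodes.

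Groups came from the labels and cell types from the authors' clusters; D and H, of mixed markers, entered no cell type. UMIs were summed per cell type and library. Ratios used sums with 0.5 UMI added and exact conditional binomial 95% intervals, shares Clopper-Pearson intervals. A gene was called where the levels were 1.5-fold apart, the interval was clear of equality and the 2 sums held 50 UMIs or more. This procedure was tested on simulated data. With 1 library per group there was no replicate, so no test was made and intervals cover counting error only. Scrublet's own threshold marked 1 control cell, so cells with a score over 0.2 (225 c-Maf KO and 228 control) were taken as doublets; they were kept, and left out in an alternative. Alternatives changed the scaling, depth, filters, cell mix and mouse type.

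The gene set, the lists of other genes and the markers were chosen with earlier results of these data known. Named genes are all 33, Maf, near-identical copies, and of the other pathway lists up to 4 called genes per direction, by size, in endothelial cells. One gene that this rule names is not reported here. Promoters were matched by symbol. Python 3.11.15, NumPy 2.4.6, SciPy 1.17.1, pandas 2.3.3, Scanpy 1.11.5 and Matplotlib 3.10.9 were used.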

Additional observations from a re-analysis of the deposited data

Results flagged for a closer look

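For 6 enzymes the ratios of c-Maf KO to control endothelial cells, on the log2 scale, had opposite signs in the 2 mouse types, each with a counting interval clear of equality. Female-type cells gave -0.48 for Tpi1, -0.15 for Gapdh, -0.43 for Pgk1, -0.22 for Pgam1, -0.55 for Eno1 and -0.38 for Ldha. Male-type cells gave 0.57 for Tpi1, 0.56 for Gapdh, 0.35 for Pgk1, 0.76 for Pgam1, 0.34 for Eno1 and 0.42 for Ldha. The difference between the types was not tested, since a type holds 1 mouse per library. No share over all genes is given for such opposite signs, so the count describes these 6 enzymes alone. All 6 had many UMIs, so their intervals were narrow and left out equality even for the -0.15 of Gapdh.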

How the results depend on the processing

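Over 17 alternatives none of the 9 calls in endothelial cells reversed. Slc2a3, Adm, Slc16a1 and P4ha1 were called under every alternative that gave them a value. Bnip3 (log2 ratio -0.56) and Slc16a3 (-0.02) were lost in male-type cells, and Epas1, Pfkm and Pfkp under a 2-fold rule, which left 2 genes higher. Thinning to equal depth also lost Pfkp, at 0.59, and left 1 gene higher, and weighting each cell the same lost Pfkm, at 0.46. Slc2a1, Hk2, Pgam1, Pfkfb3, Egln1 and Egln3 were called under 1 to 3 alternatives. The median log2 ratio, -0.17 as reported, was -0.013 on a total without mitochondrial, ribosomal, hemoglobin and Malat1 UMIs, -0.43 in female-type cells and -0.30 after thinning. The number called in S and S2, 2 as reported, was 1 on that total, 6 in female-type cells and 0 under the 2-fold rule. In C-EC it was 2 as reported, 4 with cells under 10% mitochondrial UMIs and at least 1000 UMIs, 4 without the richest cell per gene, 5 with each cell weighted the same, and 1 after thinning or under the 2-fold rule. In PV it was 0 as reported, 1 with median-ratio scaling or without cells rich in other markers, and 2 without the low-count filter or with each cell weighted the same. As reported, 7.43% of all genes were called in S and S2, 20.3% in C-EC and 12.3% in PV, and in female-type S and S2 cells 8.20%. For the other alternatives in these clusters no share over all genes is given, so their counts describe the listed genes alone. Weighting cells the same and applying the control mix of subtypes gave no interval, so those calls used fold and UMIs alone. Leaving out KOS_2 was chosen after seeing the data and lost no call. Alternatives that left a library under 50 cells, such as male-type S and S2 cells, gave no value. Causes of these differences were not tested. No paired analysis was possible because each group had 1 library. Depth limits Aldoc and Eno2 throughout, and in PV all genes of low level.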
